A study of Tupaia belangeri chinensis with 36 samples.

Results

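The miRNA profiles of testis (TESTIS-R) and of the caput, the head of the epididymis (CAPUT-R), were compared in Chinese tree shrews (Tupaia belangeri chinensis) of the reproductive season (R). The comparison used the small RNA libraries of these groups, 6 of the 36 samples of the series, chosen by tissue and season from the labels. Both groups came from males of 1.5 to 2 years collected in mid-April 2024, with 3 biological replicates each, so age, season and collection date were shared. The series also profiled the cauda, the tail of the epididymis, and a non-reproductive season (NR) collected in mid-December 2023, and it sequenced mRNA beside small RNA. RNA came from homogenized tissue. In such bulk samples, fewer cells of a type and less of an RNA per cell cannot be told apart.

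miRNAs are short RNAs that pair with messenger RNAs and lower their stability or translation. Each is cut from a hairpin precursor, whose 5p and 3p arms can both yield a mature miRNA. In testis much of the tissue is germ cells in spermatogenesis, which in mammals also hold piRNAs, small RNAs that silence transposons. The caput is a coiled tube lined by secretory epithelium and wrapped in smooth muscle, through which sperm leave the testis and begin to mature.

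The deposited miRNA table listed 1210 entries, of which 491 carried mouse miRNA names and 719 carried other names. The mouse names are used here, although the animal is a tree shrew, and 107 of the 219 distinct hairpin names tested had a tree shrew miRNA gene of that symbol in RefSeq (assembly TupChi_1.0). Totals were 2746650, 4800500 and 2166152 miRNA counts in TESTIS-R 1 to 3, against 14756858, 8249969 and 11587799 in CAPUT-R 1 to 3, so the testis libraries were the shallower ones. The 10 most abundant entries took 67.9% to 73.7% of a library. Among them were miR-101a-3p and miR-101c, which carried nearly the same counts. The miR-101 entries held 37.8% to 39.7% of the counts in TESTIS-R and 17.2% to 24.4% in CAPUT-R. Totals, and shares and ratios taken over them, count both names. Rank correlations of the levels across entries were 0.821 to 0.874 within TESTIS-R, 0.888 to 0.932 within CAPUT-R and 0.590 to 0.674 between the tissues. Levels are given as CPM, counts relative to TMM-scaled library size, and differences are log2 values of TESTIS-R minus CAPUT-R. Ranks among miRNAs are ranks of read counts.

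The tissue labels were set against small RNAs known to mark germ cells, gonad and epithelium. The same libraries held 151, 134.2 and 209 piRNA counts per 100 miRNA counts in TESTIS-R 1 to 3, against 0.295, 0.114 and 1.69 in CAPUT-R 1 to 3. The groups did not overlap, and the ratio was 422-fold higher in testis (two-sided exact permutation test of the log2 ratios, p = 0.1, the smallest that 3 against 3 libraries allow). On the log2 scale the difference was 8.72, 9.79 without CAPUT-R 3 and 7.84 without CAPUT-R 2. Summed over its 10 entries, the miR-200 family of epithelial miRNAs stood at 1797, 648 and 168 CPM in TESTIS-R 1 to 3, against 144963, 112974 and 142819 CPM in CAPUT-R 1 to 3. On these measures all 6 libraries lay on the side of their label. Within the caput, library CAPUT-R 3 had the most piRNA counts per miRNA count and also the highest miR-202-5p, miR-449a-5p and miR-34b-5p, all of which were high in testis. Within the testis, TESTIS-R 1 had the highest miR-200 family sum and TESTIS-R 3 the lowest. The part of these gradients in the differences below was not tested, and values without the library concerned are given where they move a result.

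**Figure D1:**
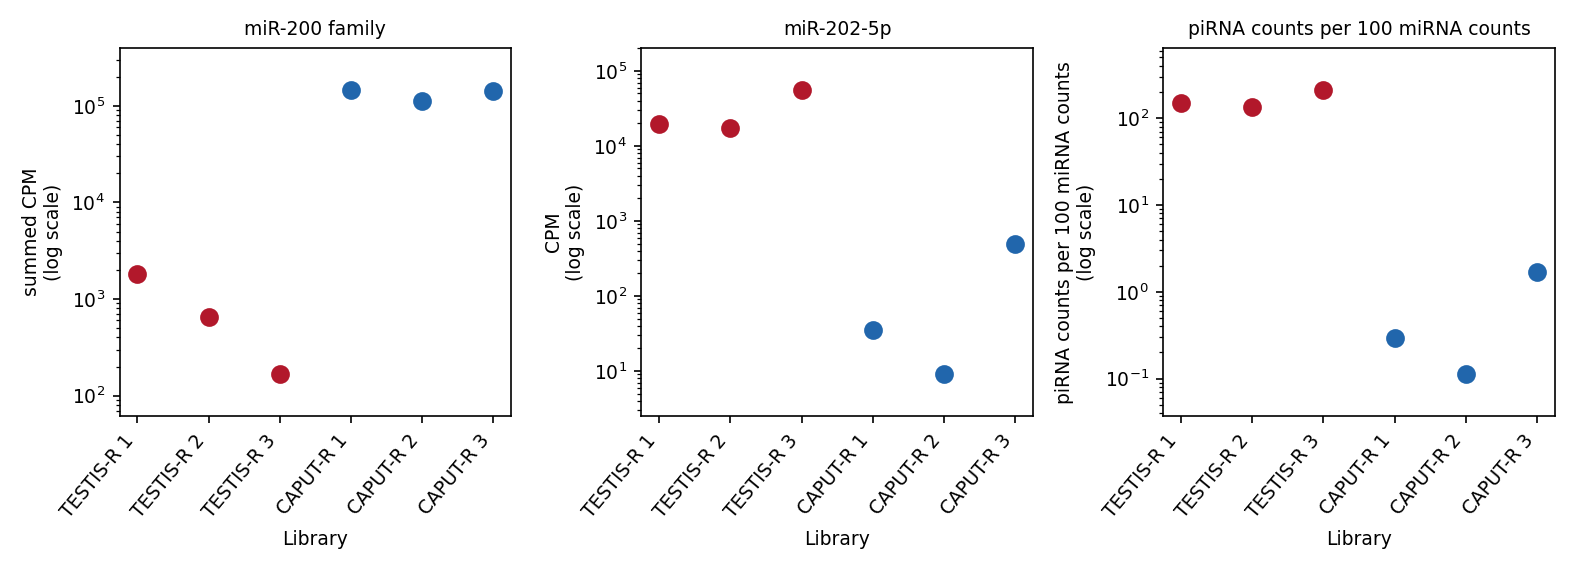
Each point is 1 library, TESTIS-R in red and CAPUT-R in blue, on log axes: the summed level of the miR-200 family (CPM), the level of miR-202-5p (CPM) and the piRNA counts per 100 miRNA counts. The tissues are separated in each panel, TESTIS-R 1 is the highest testis library for the miR-200 family, and CAPUT-R 3 is the highest caput library for miR-202-5p and piRNAs.

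Testis stood out by miR-202, the miR-34 and miR-449 family, miR-19 and miRNAs of the imprinted DLK1-DIO3 locus, and caput by the miR-200 family, miR-205, miR-10 and the miR-183 cluster. Of 467 entries that passed the filter on low counts, 238 differed between the tissues at an adjusted p under 0.05 (edgeR's quasi-likelihood test with Benjamini-Hochberg adjustment, n = 3 each). Of all entries tested, 115 (24.6%) were higher in testis and 123 (26.3%) were lower. Among the 306 mouse-named miRNAs tested, 68 (22.2%) were higher and 111 (36.3%) were lower. Changes were often large, with 225 of the 238 at 2-fold or more. At 8-fold or more stood 16 of the mouse-named miRNAs that were higher and 49 of those that were lower. The median log2 difference was -0.07 over all entries and -0.74 over the mouse-named ones. The libraries of the groups did not overlap for 237 of the 238 called entries, and did not overlap for 301 of the 467 tested. Without CAPUT-R 3 the count was 69 higher and 90 lower.

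Which side holds more calls depended on the scaling. Scaled by library total, 63.2% of the calls were higher and 86 entries were lower, against 48.3% higher with TMM, and the median of all entries moved by 0.64 on the log2 scale. With only mouse-named miRNAs in the fit, 82 were higher and 107 lower (43.4% of calls higher), and the median of the entries in that fit stood at -0.55. The share of mouse-named counts in a library was 89.0% to 90.3% in TESTIS-R and 83.8% to 95.2% in CAPUT-R. None of the 89 called miRNAs chosen by the naming rule changed direction under these scalings.

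**Figure D2:**
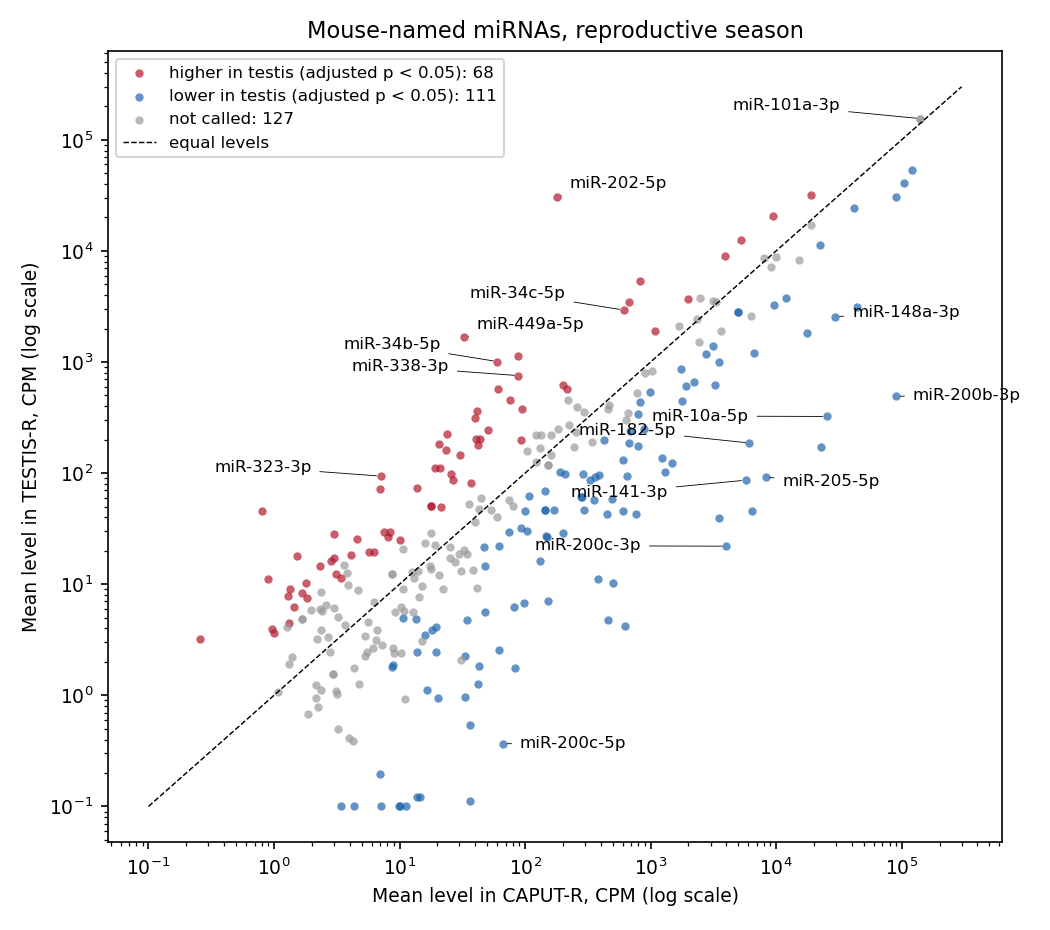
Mean level of each of the 306 mouse-named miRNAs tested in TESTIS-R (vertical, CPM, log scale) and in CAPUT-R (horizontal, CPM, log scale), 3 libraries each; red and blue points were called higher (68) or lower (111) in testis, grey ones were not called, and levels under 0.1 CPM are drawn at 0.1. miR-202-5p lies far above the line of equal levels and the miR-200 family far below it.

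The miR-34 and miR-449 miRNAs share a seed and in mice act together in germ cells that enter meiosis and form spermatids, and also in multiciliated epithelia. All 6 members that passed the filter were called higher in testis, with a median log2 difference of 2.75, against -0.74 over all mouse-named miRNAs. Their summed levels ran from 4785 to 6633 CPM in TESTIS-R and 638 to 900.4 CPM in CAPUT-R. miR-449a-5p had 1483, 2011 and 1522 CPM in TESTIS-R 1 to 3, against 24.4, 20.7 and 53.4 CPM in CAPUT-R 1 to 3. The lowest testis library stood far above the highest caput library, and the difference was 5.67 (SE 0.50, adjusted p = 0.00152). miR-34b-5p, made with miR-34c from 1 transcript, had 643, 1067 and 1318 CPM in TESTIS-R 1 to 3, against 45.8, 55.1 and 79.0 CPM in CAPUT-R 1 to 3. Its groups were likewise apart, by 4.07 (SE 0.41, adjusted p = 0.00152). miR-34c-5p, the most abundant of the family, had 2381, 3055 and 3366 CPM in TESTIS-R 1 to 3, against 525, 608 and 703 CPM in CAPUT-R 1 to 3, a smaller difference of 2.26 (SE 0.24, adjusted p = 0.00175). miR-34a-5p, a target of p53 expressed in many tissues, had 194.8, 354 and 126.96 CPM in TESTIS-R 1 to 3, against 22.0, 22.2 and 27.03 CPM in CAPUT-R 1 to 3, and differed by 3.25 (SE 0.46, adjusted p = 0.00387). miR-34b-3p and miR-34c-3p, the other arms, were higher by 1.92 and 1.74. Counts of calls in the family ranged from 4 to 6 over the alternatives run.

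miR-202-5p, known from Sertoli cells and other gonadal cells of mice, was the 6th most abundant mouse-named miRNA in testis. It had 19527, 17469.9 and 55142 CPM in TESTIS-R 1 to 3, against 35.6, 9.16 and 496.9 CPM in CAPUT-R 1 to 3. In caput the highest library, CAPUT-R 3, stood 54.2-fold above the lowest, CAPUT-R 2, and in testis the highest stood 3.16-fold above the lowest. The groups did not overlap, and the difference was 7.41 (SE 1.83, adjusted p = 0.0176). It was 10.26 without CAPUT-R 3, 6.72 without CAPUT-R 2, 6.71 without TESTIS-R 3 and 6.79 without CAPUT-R 1, where the adjusted p was 0.0535 and the call was lost. The 3p arm, miR-202-3p, had 53.5, 37.6 and 45.9 CPM in TESTIS-R 1 to 3, against 0, 0.679 and 1.73 CPM in CAPUT-R 1 to 3, with a difference of 5.80 (SE 1.28, adjusted p = 0.0123). Its value was 5.06 without CAPUT-R 1 and 6.81 without CAPUT-R 3, and without CAPUT-R 2 the adjusted p was 0.0740. The list of testis-enriched mouse miRNAs that holds miR-202 had 4 tested members. Of these, both arms of miR-202 were higher, miR-204-5p was lower, with 48.3, 42.1 and 91.7 CPM in TESTIS-R 1 to 3, against 173, 363.3 and 314 CPM in CAPUT-R 1 to 3 (log2 difference -2.22, SE 0.46, adjusted p = 0.0104; adjusted p = 0.0575 scaled by library total), and miR-184-3p stood at a log2 difference of -0.08 and was not called. The X-linked members of that list had no mouse-named entry among the deposited counts.

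**Figure D3:**
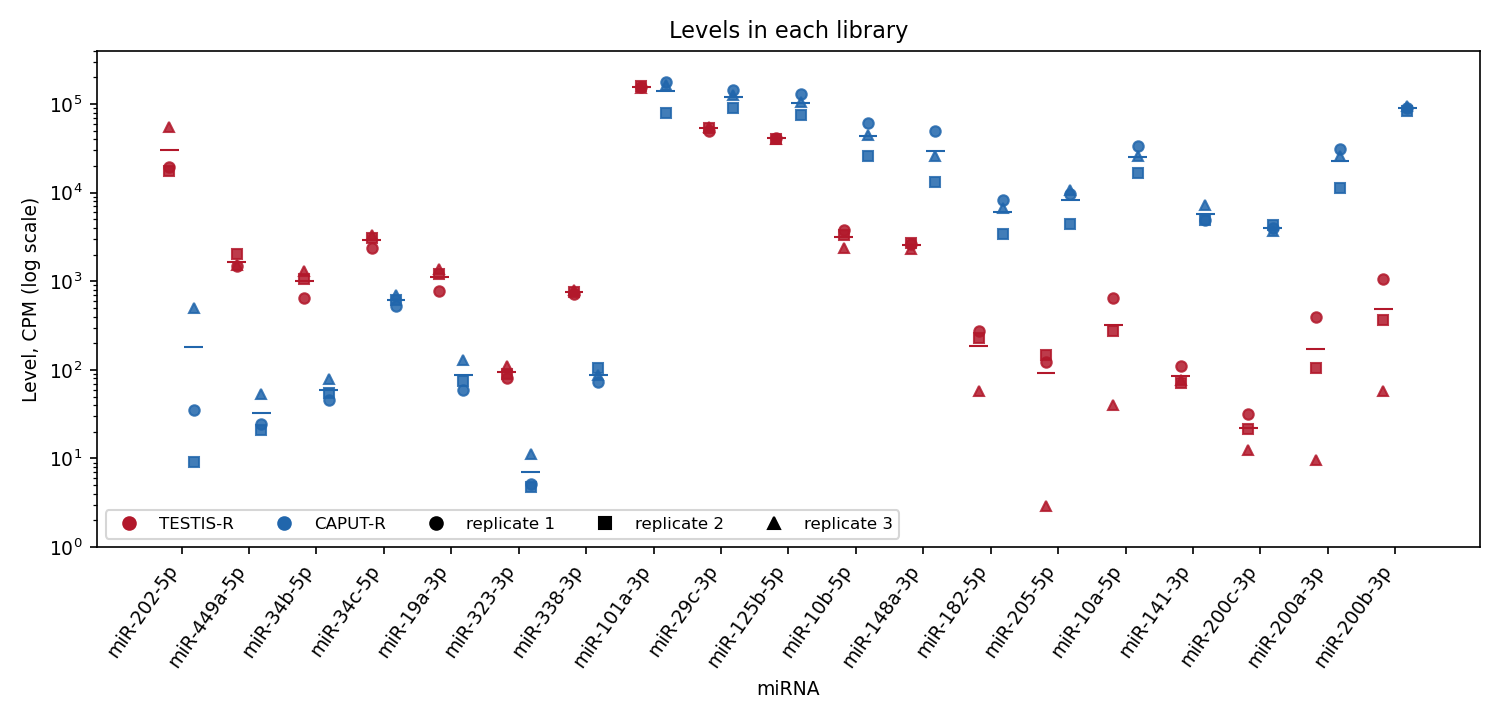
Level of 19 miRNAs (horizontal) in each library (CPM, log scale), TESTIS-R in red left of CAPUT-R in blue, with a symbol for each replicate number and a bar at the group mean. The first 7 miRNAs are higher in all testis libraries than in any caput library, miR-101a-3p overlaps, and the others are lower in all testis libraries, with the widest testis spread in miR-205-5p, miR-200a-3p, miR-200b-3p and miR-10a-5p.

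miRNAs of the miR-17-92 cluster and its relatives are known to promote proliferation. Of 18 members tested, 9 were higher in testis and 2 lower, with a median of 1.71. miR-19a-3p had 770.3, 1223 and 1373 CPM in TESTIS-R 1 to 3, against 58.8, 75.7 and 129 CPM in CAPUT-R 1 to 3, and differed by 3.68 (SE 0.43, adjusted p = 0.00241). miR-19b-3p, with the same seed, had 4218, 5813 and 5928 CPM in TESTIS-R 1 to 3, against 580.4, 781 and 1119 CPM in CAPUT-R 1 to 3, and differed by 2.69 (SE 0.33, adjusted p = 0.00249). miR-20b-5p, from the X-linked relative of the cluster, was scarce, with 21.3, 21.1 and 11.4 CPM in TESTIS-R 1 to 3, against 1.29, 1.81 and 1.502 CPM in CAPUT-R 1 to 3 (log2 difference 3.53, SE 0.46, adjusted p = 0.00301). For these the testis libraries were all higher. Cluster members did not all move alike: miR-92a-3p, from the same transcript as miR-19a, averaged 829 ± 94.9 CPM in TESTIS-R and 1016 ± 71.7 CPM in CAPUT-R (SD, n = 3 each; log2 difference -0.29, SE 0.20, adjusted p = 0.268) and was not called. The members that were lower, miR-92b-3p (-5.10) and miR-93-3p (-2.25), are named because of their direction, seen in the data. miR-25-3p was among the 10 highest in testis, with 19971, 24319.5 and 18095 CPM in TESTIS-R 1 to 3, against 11667, 6839 and 9633 CPM in CAPUT-R 1 to 3 (log2 difference 1.15, SE 0.28, adjusted p = 0.0165). Its call was lost without CAPUT-R 3 (adjusted p = 0.0898) and without TESTIS-R 2 (adjusted p = 0.0520). Without CAPUT-R 3, 5 members of the list were called higher. Of the members, 0 were called lower without CAPUT-R 2, CAPUT-R 3 or TESTIS-R 3, and 1 without each other library.

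Members of the miR-15, miR-16, miR-195 and miR-497 group, which restrain the cell cycle through cyclins, were split by gene. Of 9 tested, 6 were higher and 1, miR-195a-5p (-1.10), was lower. miR-16-5p had 8203, 9107 and 9459 CPM in TESTIS-R 1 to 3, against 3404, 4293 and 4020.2 CPM in CAPUT-R 1 to 3 (log2 difference 1.19, SE 0.20, adjusted p = 0.00525). miR-15b-5p had 119, 153 and 167 CPM in TESTIS-R 1 to 3, against 29.1, 31.4 and 29.9 CPM in CAPUT-R 1 to 3 (log2 difference 2.28, SE 0.28, adjusted p = 0.00246), and miR-16-1-3p had 149, 180.5 and 156 CPM in TESTIS-R 1 to 3, against 21.9, 21.5 and 26.9 CPM in CAPUT-R 1 to 3 (log2 difference 2.79, SE 0.27, adjusted p = 0.00152). In each of these the groups were apart. miR-497a-5p, from the transcript that also yields miR-195a, stood at -0.12 and was not called. Without CAPUT-R 3, 3 members were called higher. Of the group, 1 was called lower without CAPUT-R 1, and 0 without each of the other libraries.

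The imprinted DLK1-DIO3 locus yields a large miRNA cluster of placental mammals, expressed from the maternal chromosome. Of its 54 mouse-named entries, 49 had a count and 28 passed the filter, and 21 of these were higher in testis with 0 lower (median 2.08). Summed levels were modest, 1840.1 to 2448 CPM in TESTIS-R and 437 to 643 CPM in CAPUT-R. miR-136-5p, the most abundant of those named, had 314, 647 and 758.1 CPM in TESTIS-R 1 to 3, against 35.04, 71.6 and 74.5 CPM in CAPUT-R 1 to 3 (log2 difference 3.25, SE 0.50, adjusted p = 0.00450). miR-323-3p had 80.7, 90.0 and 111 CPM in TESTIS-R 1 to 3, against 5.17, 4.75 and 11.3 CPM in CAPUT-R 1 to 3 (log2 difference 3.73, SE 0.48, adjusted p = 0.00289). miR-411-5p had 378.1, 362 and 392 CPM in TESTIS-R 1 to 3, against 83.0, 108 and 90.5 CPM in CAPUT-R 1 to 3, close among the libraries of a tissue (log2 difference 2.01, SE 0.23, adjusted p = 0.00238). miR-382-5p had 124, 93.8 and 116 CPM in TESTIS-R 1 to 3, against 14.7, 24.1 and 18.4 CPM in CAPUT-R 1 to 3 (log2 difference 2.54, SE 0.33, adjusted p = 0.00289). The groups were apart for all these. miR-299a-3p and miR-299b-3p had nearly the same counts and stand for a single measurement. The number called fell to 8 without CAPUT-R 3, 12 without CAPUT-R 1 and 13 without TESTIS-R 1, and to 9 with no filter, while the median over the list lay between 1.85 and 2.64 in all alternatives run.

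Several other miRNAs were among the largest increases. miR-338-3p, hosted by the kinase gene AATK, had 719, 755 and 788 CPM in TESTIS-R 1 to 3, against 73.0, 104 and 88.5 CPM in CAPUT-R 1 to 3, and the libraries of each tissue were close together (log2 difference 3.09, SE 0.24, adjusted p = 0.00140). miR-217-5p and miR-216a-5p, neighbours in 1 cluster and best known from pancreas, were both higher. miR-217-5p had 445, 304 and 339 CPM in TESTIS-R 1 to 3, against 43.6, 35.6 and 45.4 CPM in CAPUT-R 1 to 3 (log2 difference 3.13, SE 0.28, adjusted p = 0.00152). miR-216a-5p had 212.03, 111 and 221.6 CPM in TESTIS-R 1 to 3, against 10.1, 24.7 and 26.9 CPM in CAPUT-R 1 to 3 (log2 difference 3.14, SE 0.53, adjusted p = 0.00557). miR-375-3p, known from pancreatic islets and other secretory cells, had 580.2, 548 and 715 CPM in TESTIS-R 1 to 3, against 145.3, 237 and 213 CPM in CAPUT-R 1 to 3 (log2 difference 1.63, SE 0.28, adjusted p = 0.00585). It was the only called member of 3 tested in the epithelial and glandular list of miR-31, miR-375 and miR-224. With all measured libraries in 1 fit it was not called (adjusted p = 0.1454).

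Of 7 miRNAs tested from a list tied to steroid production and hormone response, 3 were higher and 2 lower. Over all mouse-named miRNAs tested, 22.2% were higher and 36.3% lower. miR-132-5p, induced by cyclic AMP signalling, had 307, 361 and 270.4 CPM in TESTIS-R 1 to 3, against 52.9, 26.5 and 40.4 CPM in CAPUT-R 1 to 3 (log2 difference 2.97, SE 0.35, adjusted p = 0.00242). Its partner arm miR-132-3p (1.30) and the clustered miR-212-5p (1.82) were also higher. The lower members were both arms of miR-378a, which is made from an intron of the mitochondrial regulator PPARGC1B. miR-378a-3p had 182.2, 145.1 and 84.8 CPM in TESTIS-R 1 to 3, against 1051, 1746 and 896 CPM in CAPUT-R 1 to 3 (log2 difference -3.16, SE 0.43, adjusted p = 0.00338). miR-378a-5p stood at 1.46, 3.83 and 1.47 CPM in testis, against 11.1, 64.2 and 24.95 CPM in caput (log2 difference -3.85, SE 0.85, adjusted p = 0.0125), and was highest in CAPUT-R 2. Its value was -3.06 without CAPUT-R 2 and -4.51 without TESTIS-R 2, and its call was lost without TESTIS-R 1 (adjusted p = 0.0516) and without TESTIS-R 3 (adjusted p = 0.0544). Leaving out any single library left 1 member called higher.

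The miR-200 family keeps epithelial cells epithelial by repressing ZEB1 and ZEB2, and it comes from 2 clusters, miR-200a with miR-200b and miR-429, and miR-200c with miR-141. All 10 mouse-named entries passed the filter and all 10 were lower in testis, by a median of -7.18 on the log2 scale. An entry outside the mouse-named ones that carries a miR-141-5p name was higher in testis (log2 difference 4.40, SE 0.66, adjusted p = 0.00435). What that entry is was not analysed. miR-200b-3p, 6th in rank among mouse-named miRNAs of the caput, had 1056, 362 and 58.3 CPM in TESTIS-R 1 to 3, against 90924, 84623 and 94854 CPM in CAPUT-R 1 to 3 (log2 difference -7.52, SE 1.20, adjusted p = 0.00507). miR-200a-3p had 397, 105.98 and 9.54 CPM in TESTIS-R 1 to 3, against 30789, 11264 and 25879 CPM in CAPUT-R 1 to 3 (log2 difference -7.05, SE 1.49, adjusted p = 0.0109). miR-429-3p had 100.3, 34.1 and 2.20 CPM in TESTIS-R 1 to 3, against 8008, 3984 and 7199.9 CPM in CAPUT-R 1 to 3 (log2 difference -7.13, SE 1.43, adjusted p = 0.00954). The testis libraries of this cluster were unequal, TESTIS-R 1 being 18.1-fold, 41.6-fold and 45.6-fold above TESTIS-R 3 for miR-200b-3p, miR-200a-3p and miR-429-3p. miR-200c-3p, from the other cluster, had 31.9, 21.6 and 12.5 CPM in TESTIS-R 1 to 3, against 3947, 4371 and 3696 CPM in CAPUT-R 1 to 3 (log2 difference -7.51, SE 0.47, adjusted p = 0.00103). miR-141-3p had 111, 70.5 and 77.1 CPM in TESTIS-R 1 to 3, against 4896, 4916 and 7299 CPM in CAPUT-R 1 to 3 (log2 difference -6.05, SE 0.35, adjusted p = 0.00103). Their testis libraries were within 2.56-fold and 1.58-fold of each other, so the spread in testis was wider in the miR-200b cluster than in the miR-200c cluster.

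Without TESTIS-R 1 the differences of the miR-200b cluster were larger, -8.81 for miR-200b-3p, -8.66 for miR-200a-3p, -8.50 for miR-429-3p, -7.39 for miR-200a-5p and -9.19 for miR-200b-5p. Without TESTIS-R 2, miR-200a-3p (adjusted p = 0.0503) and miR-200b-5p (adjusted p = 0.0515) were no longer called. The minor arm miR-200c-5p had 3 counts over the testis libraries and 1795 over the caput libraries, a caput to testis ratio of 272 (95% exact interval 92.8 to 1318, counting error only). Over the alternatives run, 8 to 10 of the 10 entries were called lower and 0 higher.

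Several other epithelial miRNAs were lower too, but not all. The 3 tested entries of the epithelial and glandular list of miR-31, miR-375 and miR-224 had positive differences (median 1.54), 1 of them called. The cluster of miR-182, miR-96 and miR-183, known from sensory epithelia, had all 3 tested members lower, in each alternative run. miR-182-5p had 274, 227 and 58.3 CPM in TESTIS-R 1 to 3, against 8194, 3420.3 and 6773 CPM in CAPUT-R 1 to 3 (log2 difference -5.04, SE 0.74, adjusted p = 0.00418), and miR-183-5p had 17.5, 11.5 and 4.40 CPM in TESTIS-R 1 to 3, against 455, 231 and 466 CPM in CAPUT-R 1 to 3 (log2 difference -5.10, SE 0.66, adjusted p = 0.00289). In both, TESTIS-R 3 was the lowest testis library. miR-96-5p had 1.46, 0.166 and 0 CPM in testis against 31.9, 24.7 and 51.8 CPM in caput (log2 difference -6.04, SE 1.15, adjusted p = 0.00773; -8.21 without TESTIS-R 1). miR-205-5p, a marker of basal epithelial cells, had 123, 149 and 2.94 CPM in TESTIS-R 1 to 3, against 9739, 4425 and 10590.0 CPM in CAPUT-R 1 to 3 (log2 difference -6.49, SE 1.46, adjusted p = 0.0129), and its testis libraries spanned 50.7-fold. The call of miR-205-5p was lost with a replicate block (adjusted p = 0.0624). Its other arm, miR-205-3p, was not called (log2 difference -2.45, adjusted p = 0.177), except without TESTIS-R 2 (-7.39, adjusted p = 0.0240). miR-203-3p, which in stratified epithelia drives differentiation, had 217, 75.5 and 80.4 CPM in TESTIS-R 1 to 3, against 2113, 677 and 1609.7 CPM in CAPUT-R 1 to 3 (log2 difference -3.56, SE 0.66, adjusted p = 0.00712; -4.27 without TESTIS-R 1).

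miR-194-5p and miR-192-5p, clustered miRNAs best known from gut, liver and kidney, were lower in testis as well. miR-194-5p had 48.3, 41.4 and 39.6 CPM in TESTIS-R 1 to 3, against 477, 1079 and 738 CPM in CAPUT-R 1 to 3 (log2 difference -4.15, SE 0.39, adjusted p = 0.00152), and miR-192-5p had 47.7, 45.1 and 34.5 CPM in TESTIS-R 1 to 3, against 357, 605 and 393 CPM in CAPUT-R 1 to 3 (log2 difference -3.41, SE 0.33, adjusted p = 0.00152). Of 4 members of their list, these were the 2 called, and miR-215-5p, with the same seed as miR-192, averaged 57.2 ± 11.6 CPM in TESTIS-R and 75.04 ± 7.43 CPM in CAPUT-R (log2 difference -0.39, SE 0.29, adjusted p = 0.309). Without TESTIS-R 2, 4 entries of the list were called lower. miR-215-5p was not among them, its adjusted p being 0.249 or more in every alternative. The miR-135 list was chosen as caput-rich in this series, so its direction was known beforehand and is no separate evidence. Of its 4 entries 2 were lower, 1 without CAPUT-R 1 and 1 without CAPUT-R 3. miR-135a-5p had 1284, 971 and 3211 CPM in TESTIS-R 1 to 3, against 11546, 14617 and 26748 CPM in CAPUT-R 1 to 3 (log2 difference -3.28, SE 0.61, adjusted p = 0.00741; -3.98 without TESTIS-R 3). miR-135b-5p, with the same seed, had 1306, 1089.9 and 3346 CPM in TESTIS-R 1 to 3, against 2542, 4078 and 4336 CPM in CAPUT-R 1 to 3, groups that overlapped, and was not called (log2 difference -0.93, SE 0.50, adjusted p = 0.172), except without TESTIS-R 3 (-1.64, adjusted p = 0.0222). The paralogs averaged 1822 and 1914 CPM in testis, against 17637 and 3652 CPM in caput.

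The miR-10 and miR-196 genes lie within the Hox clusters, which pattern the body axis and the segments of the male duct. Of 7 members tested, 6 were lower in testis and 1, miR-196a-2-3p (1.61), was higher. miR-10a-5p had 656, 275 and 40.0 CPM in TESTIS-R 1 to 3, against 33373, 16567 and 25959 CPM in CAPUT-R 1 to 3 (log2 difference -6.29, SE 1.13, adjusted p = 0.00645; -7.38 without TESTIS-R 1). miR-10b-5p, with the same seed, had 3781, 3336 and 2345 CPM in TESTIS-R 1 to 3, against 61032, 26273 and 44722 CPM in CAPUT-R 1 to 3 (log2 difference -3.802, SE 0.42, adjusted p = 0.00212). All caput libraries were higher for both. Testis libraries spanned 16.4-fold for miR-10a-5p, highest in TESTIS-R 1 and lowest in TESTIS-R 3 as for the miR-200b cluster, and 1.61-fold for miR-10b-5p. The 3p arms moved the same way, miR-10a-3p by -6.59 (SE 1.38, adjusted p = 0.0105) and by -8.83 without TESTIS-R 1, and miR-10b-3p by -3.72 (SE 0.36, adjusted p = 0.00152). miR-196a-5p (-0.88) and miR-196b-5p (-1.09) differed less. No member was called higher when CAPUT-R 1, CAPUT-R 2, CAPUT-R 3, TESTIS-R 1 or TESTIS-R 3 was left out.

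All 5 tested members of the miR-148 and miR-152 family, repressors of DNA methyltransferase DNMT1, were lower in testis in every alternative run. miR-148a-3p, 9th in rank in caput, had 2659, 2689 and 2314 CPM in TESTIS-R 1 to 3, against 49959, 13054 and 25914 CPM in CAPUT-R 1 to 3 (log2 difference -3.54, SE 0.54, adjusted p = 0.00450). miR-152-3p had 663, 609 and 590.0 CPM in TESTIS-R 1 to 3, against 3498, 3188 and 3108 CPM in CAPUT-R 1 to 3, with close replicates (log2 difference -2.40, SE 0.19, adjusted p = 0.00140). miR-148b-3p had 185, 180.4 and 190.4 CPM in TESTIS-R 1 to 3, against 709.7, 492 and 825 CPM in CAPUT-R 1 to 3 (log2 difference -1.87, SE 0.27, adjusted p = 0.00387).

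The most abundant mouse-named miRNAs of both tissues were largely shared, and several were lower in testis. miR-101a-3p, a repressor of EZH2, ranked first in both, with 156635, 158321 and 150262 CPM in TESTIS-R 1 to 3, against 178542, 80355 and 163023 CPM in CAPUT-R 1 to 3, and its groups overlapped (log2 difference 0.14, SE 0.36, adjusted p = 0.773; -0.21 without CAPUT-R 2). Scaled by library total it was called higher (0.87, adjusted p = 0.00780), and as a share of miRNA counts, 19.5%, 19.8% and 18.9% in TESTIS-R 1 to 3, against 11.2%, 8.61% and 12.2% in CAPUT-R 1 to 3, its groups were apart, so its call rests on the scaling. The entry miR-101c carried nearly the same counts, so the pair is 1 uncertain measurement, listed under both names. miR-29c-3p, a repressor of collagens, had 49478, 54076 and 55589 CPM in TESTIS-R 1 to 3, against 145985, 90204 and 125501 CPM in CAPUT-R 1 to 3 (log2 difference -1.18, SE 0.27, adjusted p = 0.0135). Of 7 miR-29 entries 5 were lower, 3 when scaled by library total. miR-21a-5p, which is induced in injured tissue, had 31309.5, 28473 and 31890.5 CPM in TESTIS-R 1 to 3, against 82391, 107387 and 82325 CPM in CAPUT-R 1 to 3 (log2 difference -1.57, SE 0.23, adjusted p = 0.00435). miR-125b-5p had 41779, 40884 and 40825 CPM in TESTIS-R 1 to 3, against 130144, 76229 and 106229 CPM in CAPUT-R 1 to 3 (log2 difference -1.34, SE 0.28, adjusted p = 0.00998), and of 10 entries of the miR-99, miR-100 and miR-125 group 6 were lower, 3 without CAPUT-R 3 and 3 without TESTIS-R 2. Scaled by library total, 3 of that group were lower and 1 was higher. miR-103-3p, 10th in testis, averaged 16918 ± 3905 CPM in TESTIS-R and 19074 ± 8593 CPM in CAPUT-R and was not called (log2 difference -0.17, SE 0.39, adjusted p = 0.744).

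The let-7 miRNAs, which mark differentiated cells, had 5 of 15 entries lower and 0 higher, against 36.3% lower and 22.2% higher over all mouse-named miRNAs. Their median was -0.71, close to the -0.74 of all mouse-named miRNAs. let-7f-5p had 1675, 1498 and 1048 CPM in TESTIS-R 1 to 3, against 3165, 3259 and 3059 CPM in CAPUT-R 1 to 3 (log2 difference -1.17, SE 0.24, adjusted p = 0.00980), and let-7b-5p had 241, 204.5 and 83.7 CPM in TESTIS-R 1 to 3, against 1078, 706 and 590.2 CPM in CAPUT-R 1 to 3 (log2 difference -2.17, SE 0.48, adjusted p = 0.0125). Scaled by library total, 2 of the 15 were called lower. The entries let-7a-1-3p and let-7c-2-3p of this family carried identical counts and stand for a single measurement. Of the miR-23, miR-24 and miR-27 clusters, 6 of 7 were lower, but 2 of 7 when scaled by library total. miR-23b-3p had 138, 134.4 and 120.0 CPM in TESTIS-R 1 to 3, against 638, 503 and 667.5 CPM in CAPUT-R 1 to 3 (log2 difference -2.20, SE 0.23, adjusted p = 0.00175). Of miR-26, 2 of 3 were lower, miR-26a-5p with 4011, 3033 and 4308 CPM in TESTIS-R 1 to 3, against 9643, 12846 and 13716 CPM in CAPUT-R 1 to 3 (log2 difference -1.67, SE 0.25, adjusted p = 0.00435). In each of these named miRNAs the groups were apart.

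Families also held members that differed in opposite directions. In the miR-30 family 3 entries were higher, 1 was lower and the median was 0.17, between -0.12 and 0.88 over the alternatives. miR-30a-5p, 5th in testis, had 34832, 36595 and 23859 CPM in TESTIS-R 1 to 3, against 18324, 17907 and 20102 CPM in CAPUT-R 1 to 3 (log2 difference 0.76, SE 0.25, adjusted p = 0.0443). miR-30d-5p, with the same seed, had 1278, 1248 and 1122 CPM in TESTIS-R 1 to 3, against 7684, 5855 and 6266 CPM in CAPUT-R 1 to 3 (log2 difference -2.44, SE 0.21, adjusted p = 0.00152). The difference of miR-30d-5p was called in all alternatives, while the calls of miR-30a-5p, miR-30a-3p and miR-30b-5p were each lost without CAPUT-R 3, TESTIS-R 1 or TESTIS-R 2 (adjusted p = 0.186, 0.142 and 0.123 for miR-30a-5p), and those of miR-30a-5p and miR-30b-5p also without CAPUT-R 1 or CAPUT-R 2. The call of miR-30b-5p was lost without TESTIS-R 3 too. In the miR-181 family 3 of 8 were lower, a share near the 36.3% of all mouse-named miRNAs. Scaled by library total, 3 other members were called higher. miR-181c-5p had 53.2, 51.6 and 67.1 CPM in TESTIS-R 1 to 3, against 411.4, 247 and 404 CPM in CAPUT-R 1 to 3 (log2 difference -2.63, SE 0.32, adjusted p = 0.00242), and miR-181d-5p, from the same transcript, differed by -2.80 (SE 0.35, adjusted p = 0.00267). miR-181a-5p (0.10) and miR-181b-5p (0.33), from other loci, were not called.

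**Figure D4:**
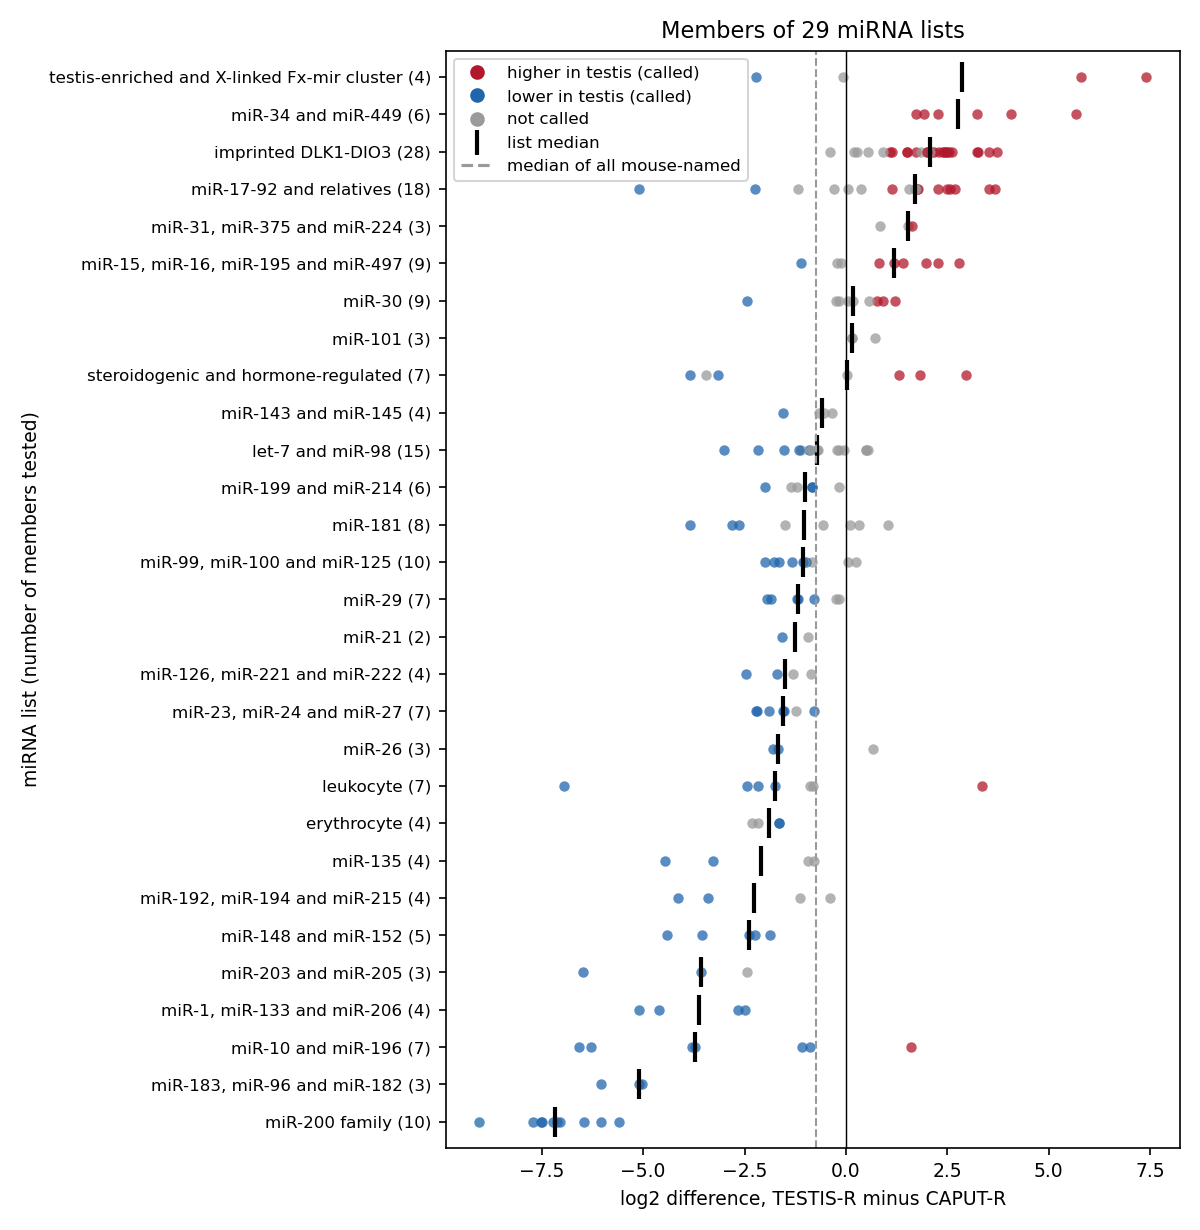
Log2 difference of TESTIS-R minus CAPUT-R (horizontal) for each tested member of 29 miRNA lists (rows, with the number of members tested), coloured by whether the member was called; black ticks are list medians and the dashed line is the median of all mouse-named miRNAs, -0.74. The miR-34 and miR-449, DLK1-DIO3 and miR-17-92 lists lie to the right and the miR-200 list, with a median of -7.18, farthest to the left.

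miRNAs that mark other cells of the tissues are given beside these results, and their part in them was not tested. Among all mouse-named miRNAs tested, 22.2% were called higher and 36.3% lower, the shares to set beside the counts of these lists. The muscle miRNAs miR-1, miR-133 and miR-206 were lower in testis at all 4 tested entries in every alternative run, with sums of 74.4 to 81.6 CPM in TESTIS-R and 285 to 865 CPM in CAPUT-R. miR-133a-3p had 1.46, 1.497 and 4.77 CPM in TESTIS-R 1 to 3, against 33.7, 94.9 and 57.3 CPM in CAPUT-R 1 to 3 (log2 difference -4.61, SE 0.74, adjusted p = 0.00507; -5.42 without TESTIS-R 3), and CAPUT-R 2 was the highest library. miR-145a-5p, of smooth muscle, had 91.0, 108 and 96.9 CPM in TESTIS-R 1 to 3, against 248, 348 and 271 CPM in CAPUT-R 1 to 3 (log2 difference -1.55, SE 0.25, adjusted p = 0.00520; adjusted p = 0.0992 scaled by library total), and was the 1 of 4 entries of miR-143 and miR-145 that was called, with sums of 4211 to 9804 CPM in TESTIS-R and 8947 to 10359 CPM in CAPUT-R. Of 6 entries of the fibroblast miRNAs miR-199 and miR-214, 3 were lower and sums ran from 5198 to 6436 CPM in TESTIS-R and 9469.9 to 11484 CPM in CAPUT-R. miR-199a-3p and miR-199b-3p had identical counts, so 2 of these 3 calls are 1 measurement, whose call was lost when scaled by library total and without TESTIS-R 1 (adjusted p = 0.0516) or TESTIS-R 2 (adjusted p = 0.0601).

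Of the endothelial list, miR-221-3p (log2 difference -1.70, SE 0.30, adjusted p = 0.00606) and miR-222-3p (log2 difference -2.46, SE 0.46, adjusted p = 0.00743) were lower, and miR-126a-3p, the endothelial marker itself, had 2303, 2837 and 2578 CPM in TESTIS-R 1 to 3, against 2368, 12399 and 4229 CPM in CAPUT-R 1 to 3, overlapping groups and no call (log2 difference -1.30, SE 0.62, adjusted p = 0.130). It was again highest in CAPUT-R 2, and its difference was -0.45 without that library and -1.85 without CAPUT-R 1. Without CAPUT-R 1, 4 entries of this list were called, and 1 was when scaled by library total. Sums of the erythrocyte miRNAs, 93.6 to 125.3 CPM in TESTIS-R and 176 to 656 CPM in CAPUT-R, were also highest in CAPUT-R 2. Of 4 entries 2 were called, miR-486a-5p and miR-486b-5p, which carry identical counts (41.8, 56.7 and 40.0 CPM in TESTIS-R 1 to 3, against 81.9, 263 and 87.5 CPM in CAPUT-R 1 to 3; log2 difference -1.64, SE 0.55, adjusted p = 0.0492). Without CAPUT-R 1, 4 entries were called, and leaving out any other single library lost the call, as did scaling by library total. Without CAPUT-R 2 the miR-486 difference was -0.95.

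Leukocyte miRNAs differed in both directions, with 4 of 7 lower, 1 higher and sums of 605 to 1308 CPM in TESTIS-R and 1811 to 3956 CPM in CAPUT-R. miR-155-5p, of activated lymphocytes and macrophages, had 79.8, 54.6 and 49.9 CPM in TESTIS-R 1 to 3, against 286, 259.9 and 288 CPM in CAPUT-R 1 to 3 (log2 difference -2.18, SE 0.29, adjusted p = 0.00301). miR-150-5p, of mature lymphocytes, had 1 count over the testis libraries and 364 over the caput libraries, a ratio of 165 with a wide counting interval of 29.5 to 6545. A further entry with a miR-150-5p name, outside the mouse-named ones, had 12, 58 and 14 counts in TESTIS-R 1 to 3. It had 638, 1717 and 1070 counts in CAPUT-R 1 to 3 (log2 difference -4.39, SE 0.63, adjusted p = 0.00391). How these entries relate was not analysed. miR-142a-3p (-1.76) and miR-142a-5p (-2.43), found in all blood cell lineages, were lower. miR-146b-5p, a brake on NF-kB signalling, was the higher one, with 116, 60.2 and 39.3 CPM in TESTIS-R 1 to 3, against 5.39, 9.05 and 6.70 CPM in CAPUT-R 1 to 3 (log2 difference 3.35, SE 0.54, adjusted p = 0.00507; 2.76 without TESTIS-R 1), while miR-146a-5p, with the same seed, was not called (log2 difference -0.89, SE 0.51, adjusted p = 0.197).

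Some miRNAs had no count in any testis library. Of the mouse-named calls 5 were of this kind, and 0 had no count in caput. Over all called entries, with or without a mouse name, 12 had no count in any testis library and 16 none in any caput library. Set against a floor of 3 counts over the testis libraries, the level in caput was at least 45.9-fold higher for miR-149-5p (303 caput counts), 41.3-fold for miR-429-5p (273), 40.1-fold for miR-653-3p (265), 17.7-fold for miR-532-3p (117) and 13.8-fold for miR-582-5p (91). These are named because of their zero counts, seen in the data, and their absence from testis could not be told from low levels at this depth.

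Of all 467 tested entries, 24.6% were higher in testis and 26.3% lower, a split that depended on the scaling, as given above. Of the 161 tested entries without a mouse name, 47 were higher in testis and 12 lower. What these sequences are was not analysed here, and below they are given by level alone. The 3 most abundant of those higher averaged 18043 ± 2038, 3600.2 ± 556 and 2230 ± 374 CPM in TESTIS-R, against 1466 ± 897, 171 ± 110 and 119.5 ± 120.3 CPM in CAPUT-R (SD, n = 3 each). Their log2 differences were 3.62, 4.40 and 4.22, the last of them 5.31 without CAPUT-R 3. The value of 4.40 is that of the entry with a miR-141-5p name given above. The most abundant of those lower averaged 310.4 ± 289 CPM in TESTIS-R and 107848 ± 88169 CPM in CAPUT-R, a log2 difference of -8.44 (SE 1.29, adjusted p = 0.0045). It took 0.0261%, 0.0797% and 0.0108% of the counts of TESTIS-R 1 to 3, against 12.8%, 3.32% and 6.61% of those of CAPUT-R 1 to 3, more than any mouse-named miRNA in CAPUT-R 1. Its difference was -7.74 without CAPUT-R 1 and -9.50 without TESTIS-R 2.

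Both arms were listed for 156 hairpins, and the balance of the 5p and the 3p arm was tested for 113 of them. The 5p share rose relative to the 3p in 5 (4.42%) and fell in 8 (7.08%) in testis (limma on log2 ratios with a pseudocount, adjusted p under 0.05). Of these 13, 5 had fewer than 10 counts of the minor arm over the 6 libraries, miR-25 and miR-183 having 0, so their ratios rest on the pseudocount and are not read. With at least 10 counts of each arm required, 97 hairpins were tested, 4 rose and 3 fell. miR-532 had 0 counts of its 3p arm among 3382 in testis, which allows a 3p share of up to 0.0887%, against 1.91% in caput. Its 5p share was 100% in each testis library, against 98.7%, 97.2% and 97.7% in CAPUT-R 1 to 3 (log2 ratio difference 5.73, SE 0.49, adjusted p = 0.00139). The testis side of that ratio is set by the pseudocount, and the difference was 6.70 with a pseudocount of 0.5 and 4.44 with 1 in every library. It was called in every alternative run.

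miR-34b yielded 91.6%, 91.1% and 91.0% 5p in TESTIS-R 1 to 3, against 79.3%, 61.2% and 72.1% in CAPUT-R 1 to 3 (log2 ratio difference 2.07, SE 0.47, adjusted p = 0.0403). miR-30d yielded 91.1%, 91.5% and 89.3% 5p in testis, against 98.1%, 98.8% and 97.7% in caput (-2.56, SE 0.45, adjusted p = 0.0145). miR-335 was the 1 called hairpin whose major arm differed, with 34.6%, 30.6% and 19.5% 5p in testis, against 83.8%, 55.6% and 73.3% in caput (-2.74, SE 0.65, adjusted p = 0.0416). It rested on 52, 72 and 113 counts of both arms in TESTIS-R 1 to 3, and with the minimum for each arm its adjusted p was 0.0551. Its call was also lost with a replicate block (adjusted p = 0.0805) and when any single library was left out (adjusted p = 0.0539 to 0.147). That of miR-34b was lost with the block (adjusted p = 0.0805) and without any single library other than CAPUT-R 1 (adjusted p = 0.0622 to 0.143). The groups were apart in each of these. Without CAPUT-R 2, and again without CAPUT-R 3, miR-532 was the only arm ratio called, and 0 fell. Without TESTIS-R 2, 3 rose and 5 fell, and without TESTIS-R 3, 9 rose, miR-34b not among them. Of the other calls with 10 or more counts of the minor arm, let-7g and miR-32 rose, and miR-299a and miR-299b, which share their counts, fell. Each of these had 1 count of the minor arm over the testis libraries, so the sizes of the ratios lean on the pseudocount. The groups of miR-32 overlapped. Its call was lost with a pseudocount of 1 in every library (adjusted p = 0.140) and without CAPUT-R 2, CAPUT-R 3, TESTIS-R 1 or TESTIS-R 2.

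The same tissues of the non-reproductive season gave libraries in which the comparison could be read again, with 2 measured libraries per tissue. The deposited columns TESTIS-NR 2 and CAPUT-NR 2 held at each entry the average of replicates 1 and 3 and were left out. Of the entries tested there, 0 were called (0%), with 80 higher and 62 lower at an unadjusted p under 0.05 in edgeR's quasi-likelihood test, and 44 called higher and 47 lower by DESeq2. Of the entries called higher in R and tested in both seasons, 86 of 89 were also positive in NR (96.6%), and of those called lower 113 of 119 were also negative (94.96%). Among entries not called in R, 72.8% had the same sign. Median log2 differences of those higher were 2.54 in R and 2.23 in NR, and of those lower -2.50 in R and -1.64 in NR.

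miR-202-5p had 65418 and 13433 CPM in TESTIS-NR 1 and 3, against 441 and 147 CPM in CAPUT-NR 1 and 3 (7.07 in NR). miR-200b-3p had 1689 and 146.02 CPM in TESTIS-NR 1 and 3, against 74206 and 79641 CPM in CAPUT-NR 1 and 3 (-6.39 in NR). miR-449a-5p had 72.4 and 746 CPM in TESTIS-NR 1 and 3, against 30.8 and 27.8 CPM in CAPUT-NR 1 and 3 (3.804 in NR, 5.67 in R), TESTIS-NR 1 standing near the caput libraries and TESTIS-NR 3 apart from them. The mouse-named miRNAs of opposite sign were miR-128-3p, miR-206-3p, miR-34c-3p and the pair miR-486a-5p and miR-486b-5p, named because of that sign, seen in the data. miR-34c-3p was 1.74 in R and -1.07 in NR, with 0.254 and 3.48 CPM in TESTIS-NR 1 and 3, against 2.97 and 4.98 CPM in CAPUT-NR 1 and 3. The test of the difference between seasons itself called 0 of 677 entries (0%), with 27 at an unadjusted p under 0.05 in edgeR's quasi-likelihood test and 11 called higher and 8 lower by DESeq2, so no miRNA is described as differing in only 1 season. Without TESTIS-NR 1 that test called 2 entries, and without TESTIS-R 1 it called 1.

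**Figure D5:**
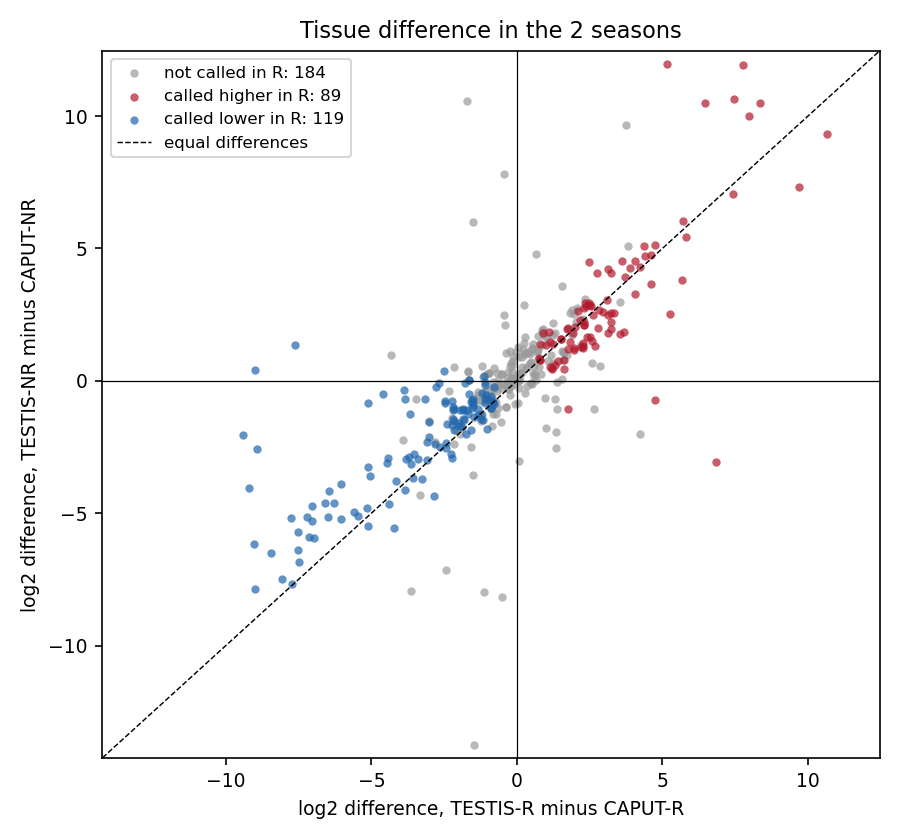
Log2 difference of testis minus caput in R (horizontal) and in NR (vertical) for the 392 entries tested in both seasons, red and blue for those called higher (89) or lower (119) in R, grey for the others; the dashed line marks equal differences. Most called entries lie in the quadrants of the same sign, 86 of 89 and 113 of 119.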

How the data were processed

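Small RNA of 50 nt single reads was counted by the authors, who deposited raw counts per miRNA and per piRNA with no normalization. featureCounts and bedtools appear in the submitters' processing notes. Aligner, genome build and miRNA reference were not given in the sources used here. Columns equal to the mean of the others of their group (TESTIS-NR 2 and CAPUT-NR 2) were left out, and 0 columns lacked a sample. All miRNA entries of the 6 libraries were fitted at once in R 4.3.3 with edgeR 4.0.16 (TMM, quasi-likelihood, default filter, Benjamini-Hochberg adjusted p under 0.05), and CPM values use the same scaling. NR was fitted alike, and the difference of the seasons as an interaction. Arm ratios were tested with limma 3.58.1 on log2 ratios of counts with a pseudocount of 1 scaled to library size, and total piRNA to miRNA ratios by an exact permutation test. Labels call the 3 libraries of a group biological replicates.

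Named miRNAs were the called ones with groups apart and a mean of at least 50 CPM in the higher group (12 largest changes each way), the 10 highest means per tissue, up to 3 members per list by p, 3 entries without a mouse name and 6 arm ratios each way. Others named were chosen after their values were seen. The comparison and the 29 lists were chosen with earlier results of these data known. Alternatives were other scalings, DESeq2 1.42.0, no filter, a minimum fold, a replicate block, 1 fit for all libraries, mouse-named miRNAs only, and each library left out. The unscaled arm pseudocount and the minimum of 10 counts per arm were chosen after seeing the data. Floors of 3 counts and intervals cover counting error only, since molecular identifiers are not given. Of these steps, the edgeR fit of the R groups and the arm ratio test were tested on simulated data.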

Additional observations from a re-analysis of the deposited data

How the results depend on the processing

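Over the alternatives run for R, 66 to 150 entries were called higher in testis and at least 86 lower. With no filter on low counts 66 were higher, and leaving out 1 library gave 69 (without CAPUT-R 3) to 98 higher and 90 to 123 lower. Of the 89 called miRNAs of the naming rule, 0 changed direction in any alternative, and 75 to 89 kept their call. Fitted with a replicate block, 77 were higher and 92 lower, with 0 called in NR and 0 in the test of the seasons. Its blocks are replicate numbers, and deviations of same-numbered libraries from their group means correlated by 0.139, -0.0258 and 0.413, so the numbers were not taken to pair the libraries. With the replicate block 5 arm ratios fell, against 8 without it. Those ratios gave 9 rises with a pseudocount of 0.5 and 3 falls with at least 10 counts of each arm, and leaving out 1 library gave 1 to 9 rises and 0 to 9 falls. The miR-25 ratio, with no 5p count, turned to 0.049 with a pseudocount of 1 in every library. In NR, 8 were higher scaled by library total, 10 higher and 2 lower with no filter, 44 and 47 with DESeq2, and 102 and 137 with the averaged columns kept, while leaving out 1 library gave 0, as with all, in a fit where the lone library is assumed to vary like the other tissue, which says nothing on stability. In the test of the seasons, 1 was lower scaled by library total, 11 were higher and 8 lower with DESeq2, and 1 higher and 5 lower with the averaged columns kept. Leaving out 1 library gave 0 to 2 higher there and 0 lower. Reversed signs occurred only in miRNAs not called with TMM: miR-101a-3p and miR-101c (0.87 each and called higher by library total, -0.010 each with no filter, -0.21 to 0.19 each with 1 library left out, lowest without CAPUT-R 2), miR-103-3p (0.55 by library total, 0.054 with mouse-named miRNAs only, -0.45 to 0.089 with 1 library left out, highest without CAPUT-R 1), miR-215-5p (0.23) and miR-143-5p (0.063) by library total, and miR-26a-2-3p (-0.14 to 0.98 with 1 library left out, lowest without TESTIS-R 2). The cause of these shifts was not tested. With 3 libraries a group and testis totals under those of caput, low testis levels were the least certain.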
